A study of Medicago truncatula with 48 samples.

Results

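The 150 transcripts described here declined together in the embryo and the endosperm of maturing Medicago truncatula seeds. They were chosen by their values in the 24 libraries grown at standard temperature, out of 44473 transcripts in the table, of which 44316 carry a nuclear identifier. Levels were taken as CPM, counts scaled to a common library size, where the size was the library total less its 100 largest counts, and group means were put on a log2(CPM + 1) scale. A transcript qualified when its highest standard-temperature group mean lay between 10 and 2000 CPM and stood less than 1 log2 unit above the second highest, which 15773 transcripts met. It also had to fall at every step through the 4 stages S1 to S4 in both embryo and endosperm, by 2 log2 units or more in total in each. These conditions left 465 transcripts, and the 150 with the largest values of the smaller of the 2 total falls are the members. The last 2 members had a smaller fall of 3.37 each, and the first 2 transcripts left out had 3.36 each.

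RNA was sequenced from dissected tissues of the accession A17 in 48 libraries, 24 from plants under heat stress at 26 °C by day and 24 from plants at the standard 20 °C. In each condition there were 3 embryo and 2 endosperm libraries at each of S1, S2, S3 and S4, and 2 seed coat libraries at S1 and at S2. The heat samples of S1 to S4 came from seeds 14, 17, 22 and 28 days old, counted from pollination (DAP), and the standard ones from seeds of 17, 26, 36 and 44 DAP. The stages are physiological, so the same stage was reached on different days in the 2 conditions.

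In maturing legume seeds the embryo fills with storage protein and oil and then passes through a sequence of acquired traits before it dries. The sampling stages mark 2 of these traits, tolerance of drying, which S1 seeds lack, and a long storage life, which only S4 seeds have in full. The endosperm is the nutritive tissue that surrounds the embryo and remains as a living layer in mature Medicago seeds, whereas the seed coat is maternal tissue that dies as the seed ripens. Transcripts that serve growth and filling are commonly withdrawn in this phase while those for dry storage accumulate. None of the 44473 identifiers matched the annotation used here, so members are given by identifier, and neither their functions nor the tissue markers of the libraries were checked.

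Total estimated counts were 17690405 to 20084649 in the 24 embryo libraries, 17864494 to 18649177 in the 16 endosperm libraries and 21549778 to 53776178 in the 8 seed coat libraries. The 100 largest counts took between 41.5% and 79.5% of an embryo library, against 18.7% to 39.9% in endosperm and 18.2% to 30.1% in seed coat. Replicates of a group are separate samples in the labels, with no statement of separate plants or cultures, so the p-values measure the spread between these samples.

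The heat libraries played no part in the choice of members, and in them the decline recurred. The median member level in heat embryos was 23.0, 14.5, 2.72 and 0.397 CPM at S1, S2, S3 and S4, against 43.1, 15.3, 2.09 and 0.230 CPM in standard embryos. In heat endosperm it was 22.1, 7.62, 1.97 and 0.981 CPM, against 38.7, 8.63, 2.17 and 0.755 CPM in standard endosperm. Over the 15773 transcripts that met the level limits the median stayed between 4.09 and 4.76 log2 units in every embryo and endosperm group. These are bulk samples, in which fewer cells of a type and less RNA per cell cannot be told apart.

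**Figure D1:**
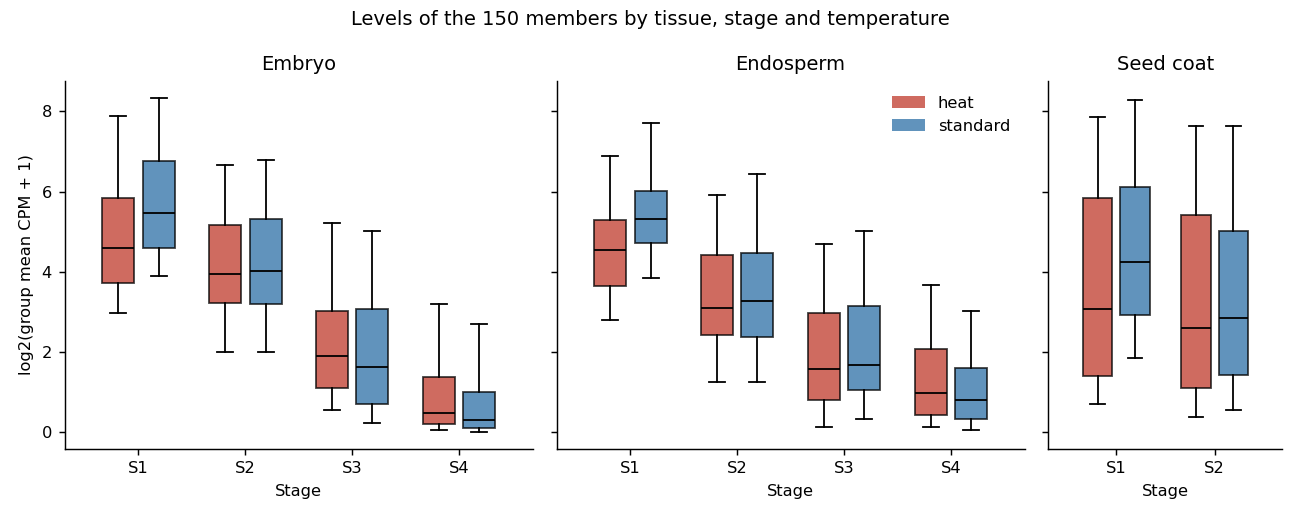
Levels of the 150 members as log2(group mean CPM + 1), by tissue and stage, with heat left and standard temperature right in each pair. The line is the median member, the box the middle 50% and the whiskers the 5th and 95th percentiles over members. In both embryo and endosperm the heat boxes step down from S1 to S4 as the standard boxes do, while the seed coat boxes are wide at both of its stages.

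Together the members took between 0.0151% and 0.0167% of all counts in the heat S4 embryo libraries, against 0.437% to 0.441% in the heat S1 embryo libraries. In heat endosperm they took 0.0219% to 0.0428% at S4, against 0.562% to 0.565% at S1. The heat S4 endosperm libraries differed from each other, with summed member levels of 356 and 683 CPM in replicates 1 and 2. At S4 the counts were low. In heat S4 embryos 55 members had 3 counts or fewer in every library and 6 had none, and in heat S4 endosperm 24 members had 3 counts or fewer and 4 had none.

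Applied to the heat libraries, the fall at every step and by 2 or more in total in both tissues was met by 110 of the 150 members, or 73.3%. The same conditions were met by 115 of the 315 qualifying transcripts below rank 150 and by 2.54% of the 15773 transcripts within the level limits. Taken singly, the conditions were met by 126 members in embryo and by 129 in endosperm, against 7.92% and 5.24% of the transcripts within the level limits. The first step was the one most often missed in heat embryos, where 20 members did not fall between S1 and S2. In heat endosperm the misses were spread over the total fall, below 2 in 12 members, the last step in 7 and the first step in 3.

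Every member was lower at S4 than at S1 in heat embryos in edgeR's quasi-likelihood fit of the heat embryo libraries, with p-values adjusted by Benjamini and Hochberg over all transcripts and calls made below 0.01. This count of 150 of 150 tested stands against 36.6% of all 20487 transcripts tested in embryo. The fitted log2 fold change had a median of -5.52 over members and ran from -10.84 to -2.36. In heat endosperm 148 of the 149 members tested were lower at S4, against 30.6% of all 24670 transcripts, with a median of -4.02 and a range from -11.48 to -1.31. The fit depends on a prior count for members with no S4 counts. With those set at the fold that 3 counts per library would give, the medians were -5.40 in embryo and -4.02 in endosperm. The 148 were lower in both tissues, as were 21.3% of the 19466 transcripts tested in both.

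**Figure D2:**
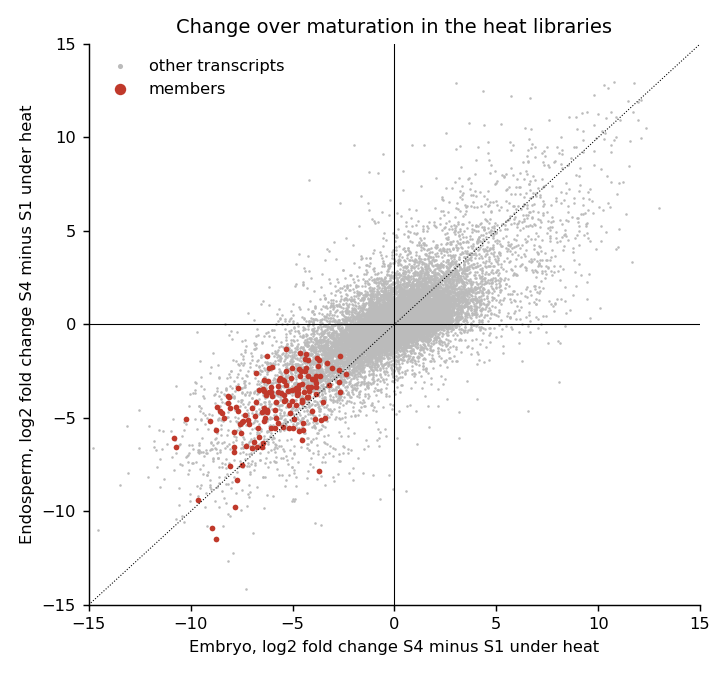
Log2 fold change S4 minus S1 in the heat libraries, embryo on the horizontal axis and endosperm on the vertical axis, 1 point per transcript tested in both tissues, members in red. The dotted line marks equal change. Members lie at the lower left, and most of them lie above the dotted line, where the embryo change is the larger fall.

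The member ranked first, MtrunA17_Chr8g0387931, shows the pattern library by library. In heat embryos it had 57.9, 68.8 and 63.9 CPM at S1, 38.0, 31.8 and 32.3 CPM at S2, 5.32, 2.14 and 1.43 CPM at S3, and 0, 0.435 and 0.182 CPM at S4. In standard embryos it had 130, 128 and 155 CPM at S1, 34.0, 30.9 and 22.8 CPM at S2, 0.647, 1.25 and 0.764 CPM at S3, and 0, 0.295 and 0.104 CPM at S4. No value of one heat stage overlapped that of the next, and at S1 the 3 heat embryo libraries lay below the 3 standard ones. The standard S1 values entered the choice of this member, so that order was favoured, to an extent that was not tested.

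In heat endosperm MtrunA17_Chr8g0387931 had 49.7 and 53.6 CPM at S1, 6.62 and 4.99 CPM at S2, 0.271 and 0.443 CPM at S3, and 0.178 and 0.258 CPM at S4. In standard endosperm it had 106 and 119 CPM at S1, 5.96 and 6.20 CPM at S2, 0.344 and 0.351 CPM at S3, and 0.346 and 0.172 CPM at S4. Most of its endosperm level was therefore gone by S2, a stage at which heat embryos still held more than 30 CPM. Its heat S4 minus S1 log2 fold change was -8.06 ± 0.41 (SE, n = 3 libraries per stage) in embryo, with an adjusted p of 3.83e-10 from edgeR, and -7.57 ± 0.24 (SE, n = 2) in endosperm, with an adjusted p of 9.52e-09. Its S1 to S2 change was smaller in embryo than in endosperm by 2.14 ± 0.32 log2 units (SE, edgeR adjusted p of 0.000212). Every SE here is the absolute log2 fold change divided by the square root of the F statistic of edgeR's test. It is rough where counts are near 0, as at S4, and can be too small there. For the difference between the embryo and endosperm S4 minus S1 changes of this member, the joint fit gave an SE of 1.09.

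The second member by rank, MtrunA17_Chr7g0255771, had 52.2, 56.1 and 59.7 CPM in heat S1 embryos, 31.99, 36.8 and 30.1 CPM at S2, 5.48, 3.03 and 2.68 CPM at S3, and 0.218, 0.109 and 0 CPM at S4. In standard embryos it had 171, 159 and 162 CPM at S1, 34.0, 33.6 and 28.2 CPM at S2, 0.259, 0.313 and 1.15 CPM at S3, and no counts at S4. All 3 heat S3 libraries thus lay above all 3 standard S3 libraries, the opposite of the order at S1. The standard embryo values entered the choice of this member, so a lower heat level at S1 was favoured. To what extent it was, and what part the choice had in the order at S3, was not tested.

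In heat endosperm MtrunA17_Chr7g0255771 had 30.3 and 32.5 CPM at S1, 4.60 and 2.54 CPM at S2, 0 and 0.0887 CPM at S3, and no counts in either S4 library. In standard endosperm it had 84.4 and 98.4 CPM at S1, 2.80 and 3.84 CPM at S2, 0.258 and 0.438 CPM at S3, and 0.0866 and 0 CPM at S4. Its heat S4 level was at least 119.6-fold lower than at S1 when S4 is set at 3 counts per library. In the seed coat it was low under heat, with 0.525 and 0.520 CPM at S2 and 0.925 and 1.25 CPM at S1, against 1.23 and 1.69 CPM at S2 and 18.8 and 6.60 CPM at S1 under standard temperature. This member and 7 others of the 150 lie within 5 places of another member in the order of identifiers on a chromosome. Its neighbour in that order is itself a member. How many of any 150 transcripts lie so close to one another was not tested.

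**Figure D3:**
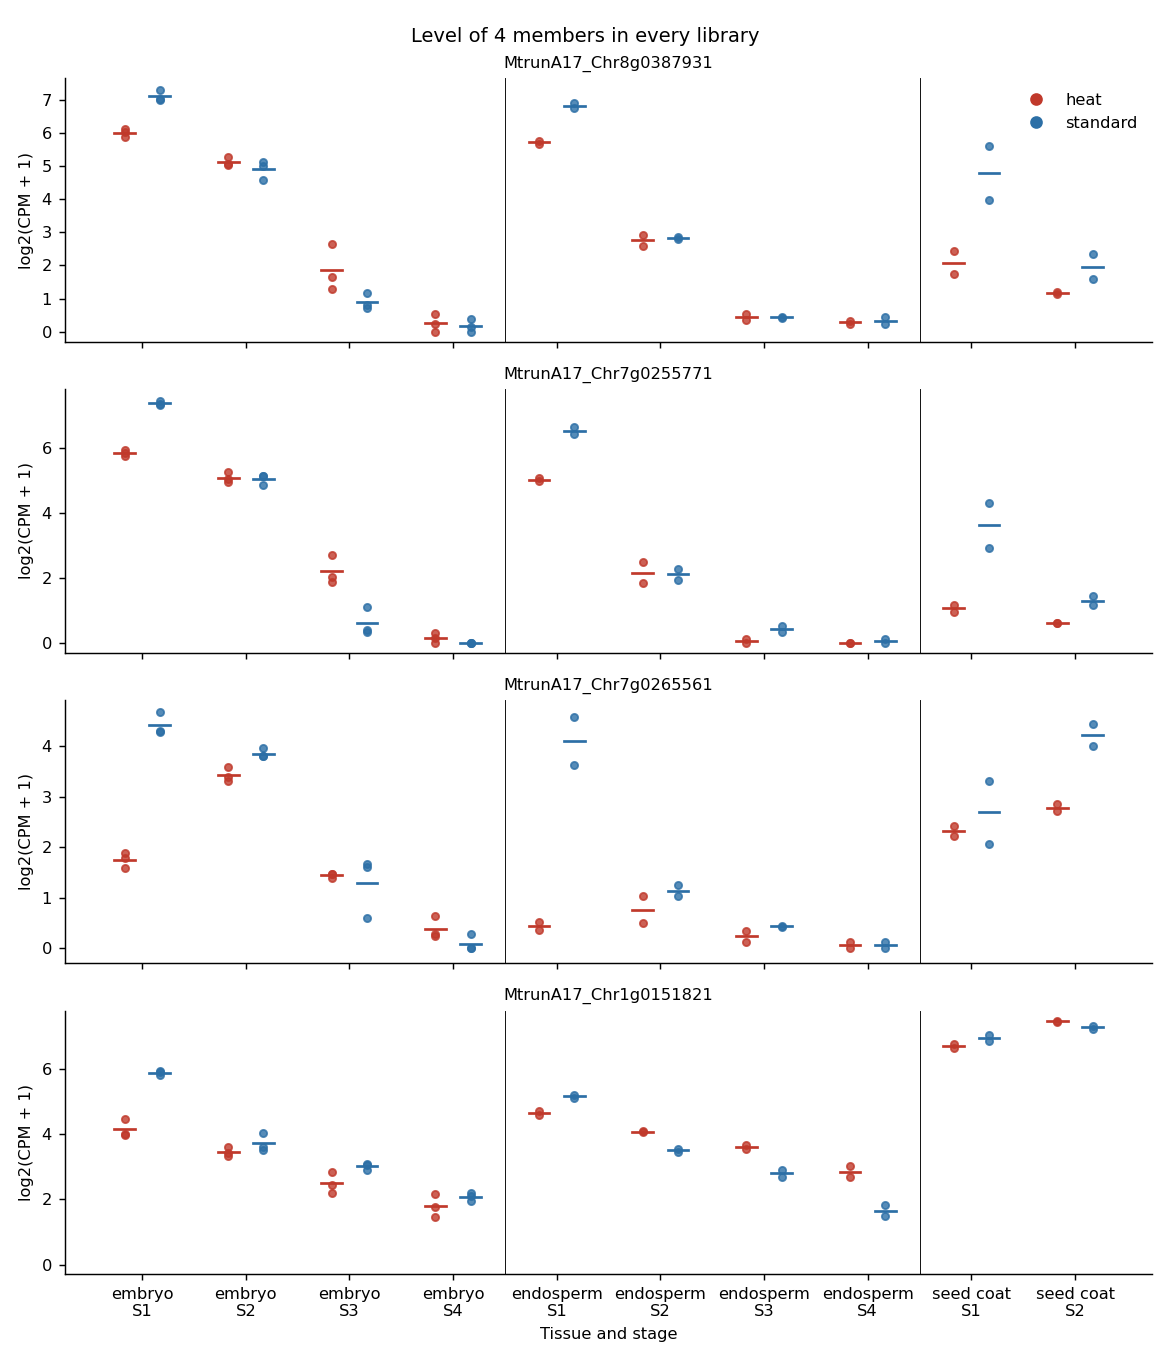
Level of 4 members in every library as log2(CPM + 1), by tissue and stage, heat left and standard temperature right; each point is 1 library and each bar the mean of a group. The upper 2 are the first members by rank and fall through S1 to S4 in both tissues, and the lower 2 were each called higher at S2 than at S1 under heat in 1 tissue, embryo for the first and seed coat for the second.

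The decline was not even over the stages. On the log2(CPM + 1) scale heat embryos had median falls of 0.65, 1.94 and 1.25 log2 units from S1 to S2, S2 to S3 and S3 to S4. The step from S2 to S3 was the largest for 98 of the 150 members, the last step for 37 and the first for 15. In heat endosperm the median falls were 1.18, 1.40 and 0.58, and the largest step was the first for 54 members, the middle one for 77 and the last for 19. This scale understates the change of low transcripts, and in heat embryos the order of the later steps turns on it. The fitted log2 fold changes, which carry no offset of 1 CPM, had medians of -0.73, -2.34 and -2.72 in heat embryos, so that the last step had the largest, also at -2.61 with members at 0 set at 3 counts per library. In heat endosperm they were -1.22, -1.76 and -1.05, in the order of the falls above.

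At standard temperature, where these values chose the members, the median falls were 1.46, 2.11 and 1.09 in embryo and 1.92, 1.34 and 0.93 in endosperm. The total fall under heat had a median of 3.83 in embryo and 3.13 in endosperm over 14 days, against 4.65 and 4.18 over 27 days under standard temperature. Per day this was 0.27 and 0.22 log2 units under heat and 0.17 and 0.15 under standard temperature. Many members were near 0 at S4, with 55 in heat and 71 in standard embryos at 3 counts or fewer in every library. The totals meet a floor there, so the per-day values follow in part from the division by 14 or 27 days. They are not measured rates of decline. The median member kept 2.11% of its S1 level at S4 in heat embryos and 5.32% in heat endosperm, against 0.729% and 2.14% under standard temperature. Members at 0 were set at 3 counts per library for these shares.

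**Figure D4:**
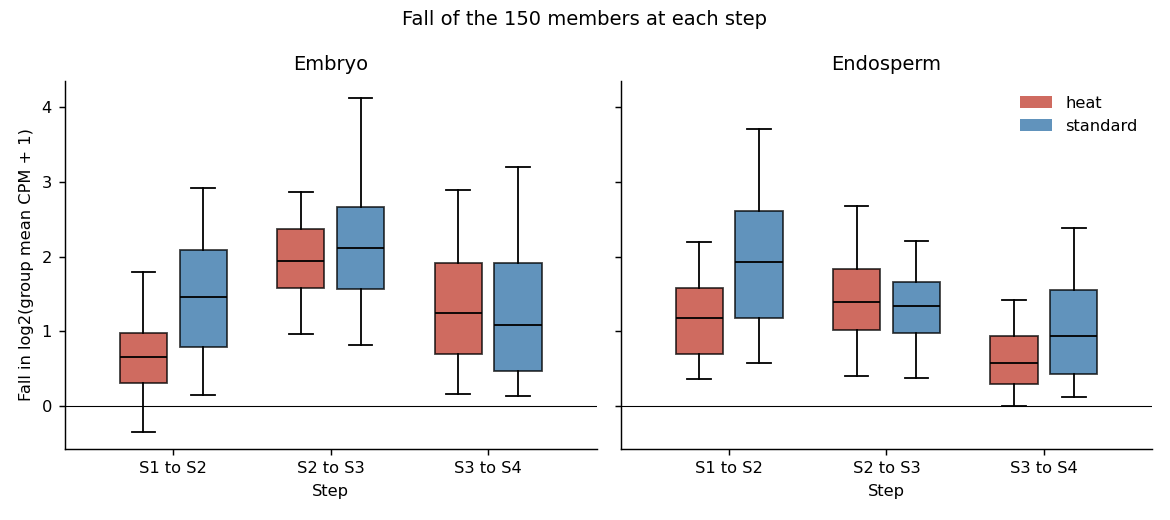
Fall of the 150 members at each step in log2(group mean CPM + 1), embryo left and endosperm right, with heat left and standard temperature right in each pair. The line is the median, the box the middle 50% and the whiskers the 5th and 95th percentiles over members. On this scale the highest heat box is at S2 to S3 in embryo, with a median of 1.94, against 1.25 at S3 to S4, an order that the fitted log2 fold changes reverse, while in endosperm the medians of the first and middle steps, 1.18 and 1.40, lie close together.

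Step by step, edgeR called 67 members lower and 4 higher at S2 than at S1 in heat embryos, where 10.6% of all transcripts were lower and 12% higher. The median log2 fold change was -0.73. Leaving out any 1 of the S2 heat embryo libraries brought the 67 down to 41, 42 and 42 for replicates 1, 2 and 3. From S2 to S3, 141 members were lower, against 21.4% of all transcripts, with a median of -2.34. From S3 to S4, 118 were lower, against 29.1% of all, with a median of -2.72. Over replicates the SD of log2 CPM had a median over members of 0.15 and 0.14 at S1 and S2 and of 0.37 and 0.45 at S3 and S4 in heat embryos.

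In heat endosperm 104 of 149 members were lower at S2 than at S1, against 9.99% of all transcripts, with a median log2 fold change of -1.22. Without any 1 of the 4 libraries compared, replicates 1 and 2 of S1 and of S2, the count was 65, 66, 69 and 66. From S2 to S3, 119 were lower, against 16.3% of all, with a median of -1.76. From S3 to S4, 36 were lower, against 6.88% of all, with a median of -1.05. This last count rests on few libraries. It was 4 without either S3 library, 15 to 17 without an S1 or S2 library and 58 without replicate 2 of S4, the library with the higher summed member level.

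All 3 steps were called lower for 53 members in heat embryos, against 3.68% of all transcripts tested there, and for 18 members in heat endosperm, against 0.709%. Only 9 members were called lower at all 6 steps, as were 0.175% of the transcripts tested in both tissues.

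Whether the 2 tissues fell by different amounts was tested in a fit of the heat embryo and endosperm libraries together. The S4 minus S1 change was the more negative in embryo for 51 members and in endosperm for 3, against 17.5% and 17.3% of all 26025 transcripts, and 96 members did not pass. Of the 315 qualifying transcripts below rank 150, the change was the more negative in embryo for 136 and in endosperm for 11. The larger embryo fall was thus not particular to the members. The median difference was -1.43 log2 units over members, -1.19 in those 315 and 0.11 over all transcripts. The SE of this difference, derived from the F statistic as above, had a median of 0.59 over members. The falls were related across members, with a Pearson correlation of 0.59 between embryo and endosperm over 150 members under heat, a description in which the members of each tissue share their libraries.

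The same test was then run for each step, a choice made after the values were seen. From S1 to S2 the embryo fall was the larger for 4 members and the endosperm fall for 22, where 3.75% and 3.11% of all transcripts went those ways. From S2 to S3 the embryo fall was the larger for 10 and the endosperm fall for 3, against 5.88% and 4.19%. From S3 to S4 the embryo fall was the larger for 29, against 4.51%. Of the 315 qualifying transcripts below rank 150, the embryo fall was the larger for 5, 37 and 41 at these steps in turn. In the same 315 the endosperm fall was the larger for 10, 4 and 0. The counts of members moved with single libraries. Without replicate 1 or 2 of S3 or replicate 2 of S4 in heat endosperm the count of 29 was 18, 14 and 11, and the count of 22 was 14 without replicate 2 of S1 and 13 without replicate 2 of S2 in endosperm but 39 without replicate 3 of S4 in embryo. The 10 became 4 to 6 without replicate 3 of S2 or replicate 2 of S3 in embryo, or without either S2 library or replicate 2 of S3 in endosperm, and 18 without either S4 endosperm library. The 4 became 0 to 2 without replicate 1 or 3 of S1 or of S2 in embryo or without any 1 library of S1, S2 or S3 in endosperm. The 3 became 1 without replicate 1 of S3 in embryo, replicate 1 of S2 or either S3 library in endosperm, and 5 without replicate 3 of S4 in embryo.

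All 4 members called higher from S1 to S2 in heat embryos were lower at S4 than at S1. The one with the smallest adjusted p was MtrunA17_Chr7g0265561. In heat embryos it had 2.69, 2.43 and 2.00 CPM at S1, 11.0, 9.43 and 8.88 CPM at S2, 1.77, 1.78 and 1.61 CPM at S3, and 0.546, 0.218 and 0.182 CPM at S4. In standard embryos it had 24.5, 18.7 and 18.3 CPM at S1, 14.5, 12.9 and 12.9 CPM at S2, 0.518, 2.03 and 2.16 CPM at S3, and 0, 0 and 0.209 CPM at S4. At S1 every heat embryo library lay below every standard one, and at S2 the heat libraries lay closer to them but still below. The S2 minus S1 log2 fold change under heat was 1.99 ± 0.28 (SE, n = 3), with an adjusted p of 8.92e-05 from edgeR.

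In heat S1 endosperm MtrunA17_Chr7g0265561 was nearly absent, at 0.290 and 0.442 CPM, against 11.3 and 23.0 CPM in standard S1 endosperm. It is the 1 member that did not pass the filter on low counts in the heat endosperm fit. In the seed coat it had 6.23 and 5.55 CPM at S2 and 4.37 and 3.64 CPM at S1 under heat, against 14.9 and 20.5 CPM at S2 and 8.96 and 3.17 CPM at S1 under standard temperature. Its endosperm values at S1 therefore lay lower under heat without overlap, as did those of 40.4% of transcripts within the level limits. Its seed coat values overlapped at S1 but not at S2, where heat was lower, as in 31.0% of those transcripts. The standard embryo and endosperm values entered its choice. A lower heat level at S1 in both tissues was thus favoured, to an extent that was not tested. Heat S1 samples were also of 14 DAP and standard ones of 17 DAP.

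The seed coat was used neither for the fall nor for the ranking. Under heat 32 of the 147 members tested were lower at S2 than at S1 and 4 were higher, where 7.93% and 5.79% of all 23541 transcripts went those ways, and the median log2 fold change was -0.50. With 2 libraries per stage the count of 32 turned on single libraries, being 74 and 55 without replicate 1 or 2 of S1 and 0 and 1 without replicate 1 or 2 of S2. On the log2(CPM + 1) scale the median fall from S1 to S2 was 0.35 in heat seed coats and 1.26 in standard seed coats, where standard values chose the members only through the level limits.

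MtrunA17_Chr1g0151821 had the smallest adjusted p among the 4 members that were higher at S2 in heat seed coats. All 48 of its values are fractional estimates, which Salmon gives where reads are split between similar transcripts, so its levels are less certain. It had 175 and 177 CPM at S2 and 99.7 and 108 CPM at S1 in heat seed coats, against 150 and 161 CPM at S2 and 114 and 130 CPM at S1 in standard seed coats. The S2 minus S1 log2 fold change under heat was 0.74 ± 0.07 (SE, n = 2), with an adjusted p of 0.000851 from edgeR. In heat embryos the same transcript had 3.52, 2.41 and 1.74 CPM at S4, against 21.0, 14.8 and 15.1 CPM at S1, and in heat endosperm 5.38 and 7.20 CPM at S4, against 23.0 and 25.2 CPM at S1. No S4 value overlapped an S1 value in either tissue. It thus fell in the embryo, by 2.65 ± 0.27 on the log2 scale (SE, edgeR adjusted p of 5.70e-07), and in the endosperm, by 1.68 ± 0.15 (SE, edgeR adjusted p of 5.30e-06), while at S1 its seed coat level was above both.

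At S1 under heat the 3 tissues were compared in 1 fit of all heat libraries. Embryo levels were higher than endosperm levels for 68 members and lower for 20, against 29.0% and 37.4% of all 27374 transcripts, with a median difference of 0.58. Seed coat levels were lower than endosperm levels for 89 and higher for 42, against 31.6% and 32.9%, and lower than embryo levels for 103 and higher for 25, against 29.1% and 40.2%. Here the member differences spread widely, from -6.68 to 5.49 log2 units for seed coat minus endosperm and from -7.27 to 6.32 for seed coat minus embryo. Of the 315 qualifying transcripts below rank 150, embryo levels were higher than endosperm levels for 147 and lower for 76. Their seed coat levels were lower than endosperm levels for 146 and higher for 100. Against embryo levels they were lower for 173 and higher for 84. The rule asked for a fall from S1 in embryo and endosperm but not in seed coat. Lower seed coat levels at S1 were thus favoured by the choice, to an extent that was not tested.

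**Figure D5:**
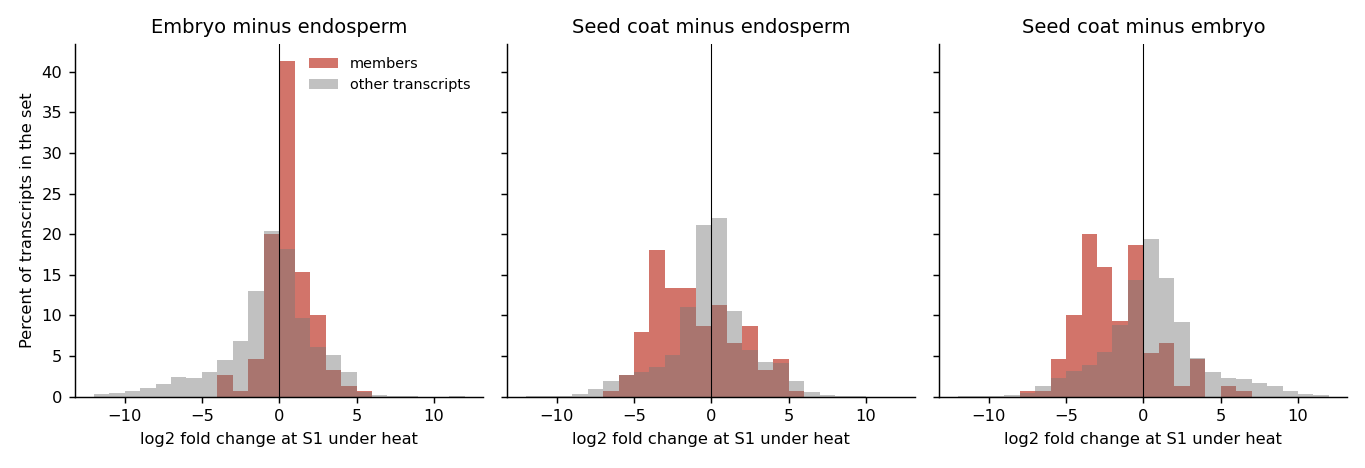
Log2 fold changes between tissues at S1 in the heat libraries, as the percent of 150 members in red and of the other transcripts tested in grey, in bins of 1 log2 unit, with values past the axis counted in the end bins. Members gather on the positive side of 0 in embryo minus endosperm, where the median is 0.58, and spread over many units on both sides of 0 in the 2 seed coat comparisons.

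Both seed coat comparisons were called lower for 86 members, against 15.6% of all transcripts tested, and both were called higher for 22 members, or 14.7%, against 24.3%. The rule favoured the set of 86, since it asked for a fall from S1 in embryo and endosperm only. The other 42 were not called on at least 1 side or were called in opposite directions. Of the 22, 10 were lower and 3 higher at S2 than at S1 in heat seed coats, against 4 lower and 1 higher of the 86. Of the other 42, 18 were lower and 0 higher, so the fall was not particular to the 22. Over all transcripts tested there 7.93% were lower and 5.79% higher. The 86 were set apart by low seed coat levels, so these counts do not compare the size of the falls. MtrunA17_Chr8g0387931, which is among the 86, was not called at -1.46 ± 0.38 (SE, n = 2, edgeR adjusted p of 0.0339). The calls share the S1 seed coat libraries with the sets and are given as counts. The S4 minus S1 change in heat embryos had a median of -6.17 in the 22 and -5.35 in the 86, and in heat endosperm of -3.76 and -4.10. Across the 10 heat groups, 67 members were highest in S1 embryo and 46 in S1 endosperm. Another 19 were highest in S1 seed coat, 11 in S2 embryo and 7 in S2 seed coat. The highest level in S1 embryo or S1 endosperm was likewise favoured by the choice of members.

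Heat and standard libraries of a stage were set side by side without a test, since the standard values chose the members. At S1 the members were lower under heat in all 3 tissues, with a median difference of -0.91 in embryo and in endosperm and -0.997 in seed coat, and 137, 142 and 130 of 150 members were lower. With levels scaled to the whole column sum the embryo value was -1.52. Over the 15773 transcripts within the level limits the medians were 0.07, -0.00 and 0.05. The 315 qualifying transcripts below rank 150 had -0.49, -0.49 and -0.58. In embryo and endosperm the standard S1 levels entered the choice of members. A difference of this sign was thus favoured there, to an extent that was not tested. Seed coat levels entered only through the level limits, and what part the choice had in the seed coat difference was not tested.

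From S2 on, the median heat minus standard difference was -0.00, 0.20 and 0.12 in embryo at S2, S3 and S4, it was -0.20, -0.18 and 0.19 in endosperm, and -0.12 in seed coat at S2. On the whole column sum the S2 endosperm value was -0.33. In S2 endosperm 104 of 150 members were lower under heat, while at S4 117 were higher under heat in embryo and 114 in endosperm. Over the transcripts within the level limits the medians were -0.02 in S2 endosperm, 0.04 in S4 embryo and 0.002 in S4 endosperm. In the qualifying transcripts below rank 150 they were -0.14, 0.04 and 0.21. The standard S4 levels entered the choice of members, so a higher heat level at S4 was favoured, to an extent that was not tested. At S4 levels near or below 1 CPM this scale is compressed, and the median member levels were 0.397 CPM in heat and 0.230 CPM in standard embryos, and 0.981 CPM in heat and 0.755 CPM in standard endosperm. Set by day and not by stage, heat S2 and standard S1 tissues were both taken at 17 DAP. In embryo and endosperm the standard S1 values chose the members and fall by the rule. A negative difference there was thus favoured, to an extent that was not tested. On that day 149 members were lower in heat than in standard embryos, 148 in endosperm and 138 in seed coat, with median differences of -1.43, -1.95 and -1.38, against 0.18, -0.02 and 0.07 over the transcripts within the level limits. At matched stage the heat S2 values at 17 DAP and the standard S2 values at 26 DAP differed by the -0.00, -0.20 and -0.12 given above.

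The members were spread over all 8 chromosomes, as their identifiers name them, with 29 on chromosome 1, 25 on 7, 21 on 3, 20 on 4, 18 on 5, 15 on 8, 14 on 2 and 8 on 6. In percent, the share on chromosome 1 was 19.3% of members and 15.2% of transcripts within the level limits, and the share on chromosome 7 was 16.7% and 12.4%. There were 2 pairs of members adjacent in identifier order, a count for which no background was taken. Transcript length had a median of 2003 bases in members and 1896 bases in transcripts within the level limits. In 16.0% of members and in 28.4% of those transcripts, most of the values above 0 were not whole numbers, to within 1e-09. Salmon gives such values where it splits reads between similar transcripts, so these members are less certain than the others.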

How the data were processed

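Reads (BGISEQ-500, single-end) were quantified by the authors with Salmon in quasi-mapping mode with sequence bias correction on the MtrunA17r5.0-ANR transcriptome, after removal of adapters and low-quality reads. The authors deposited estimated counts per transcript for 48 libraries, not normalised and not pooled. Every value column was assigned to a sample by name (0 unassigned). CPM levels used each column sum less its 100 largest counts.

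Estimated counts were rounded and fitted with edgeR 4.0.16 (R 4.3.3): filterByExpr (minimum count 10, total 15), TMM factors, the quasi-likelihood test and Benjamini-Hochberg adjustment over all transcripts, with calls at 0.01. Only heat libraries entered these fits. Each SE was derived as the absolute log2 fold change divided by the square root of the F statistic. The script was tested on simulated data. Alternatives were DESeq2 1.42.0, RLE size factors, other library sizes, no filter, added standard libraries, a replicate block, a 0.05 threshold, a 2-fold minimum (1 log2 unit) and leaving out each library.

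The members and lists were chosen with earlier results of these data known. The lists of genes, markers and promoter motifs prepared for the report could not be applied, because 0 of 44473 identifiers matched the RefSeq table used. Identifiers named in the text are the first 2 members by rank and, of the members called higher in a stage comparison under heat, the 2 with the smallest adjusted p. Night temperatures differ between the sources and are left out.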

Additional observations from a re-analysis of the deposited data

Results flagged for a closer look

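Under heat the S1 to S4 change differed between embryo and endosperm beyond the adjusted threshold of edgeR's quasi-likelihood test for 51 members with the larger fall in embryo and for 3 with the larger fall in endosperm, where 17.5% and 17.3% of all transcripts went those ways. Of the 315 qualifying transcripts below rank 150, 136 had the larger fall in embryo and 11 in endosperm. By step, the embryo fall was the larger for 4 members and the endosperm fall for 22 from S1 to S2, against 3.75% and 3.11% of all transcripts. From S2 to S3 these were 10 and 3 members, against 5.88% and 4.19%, and from S3 to S4 the embryo fall was the larger for 29, against 4.51%. The 4, the 10 and both counts of 3 are near or below these shares of 150 members. Embryo and endosperm libraries also differ in number per stage, 3 against 2, and in the share of counts held by the 100 largest, 41.5% to 79.5% against 18.7% to 39.9%, and the part of these in the differences was not tested. Groups had 2 or 3 libraries, and single libraries were checked by leaving each out in turn.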

How the results depend on the processing

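Counts are of members called. With a change of at least 1 log2 unit required, 38 were lower from S1 to S2 in heat embryos, 9 in heat seed coats, and 11 were lower in embryo than endosperm at S1. At an adjusted p below 0.05, 68 were lower from S3 to S4 in heat endosperm, and the step differences became 7 with the larger fall in embryo and 44 in endosperm (S1 to S2), 23 and 6 (S2 to S3), and 61 and 1 (S3 to S4). Without a filter 14 were lower in heat seed coats. With library sizes less the 100 largest counts 31 were lower in embryo than endosperm at S1 and 2 had the larger embryo fall from S1 to S2; this scaling moved the median of all transcripts most for embryo minus endosperm at S1, to -0.59 against -0.30. DESeq2 gave 5 with the larger endosperm fall from S2 to S3 and 46 with the larger embryo fall from S3 to S4, and with standard libraries in the fit 45 had the larger embryo fall from S3 to S4.

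Heat minus standard medians moved to -1.04 (TMM) and -1.52 (whole column sum) in S1 embryos, 0.14 (whole sum) in S2 embryos, -0.84 and -0.98 in S1 endosperm, -0.33 (whole sum) in S2 endosperm and -0.0914 (TMM) in S3 endosperm.

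Leaving out each library in turn gave 41 to 90 lower from S1 to S2 in heat embryos, 65 to 136 in heat endosperm, 4 to 58 from S3 to S4 in heat endosperm and 0 to 74 in heat seed coats, where the lone library left in a group is assumed to vary like the others. It gave 150 to 150 lower from S1 to S4 in embryo and 148 to 149 in endosperm. The step differences ran from 0 to 5 (embryo larger) and 13 to 39 (endosperm larger) from S1 to S2, 4 to 18 and 1 to 5 from S2 to S3, and 11 to 40 and 0 to 1 from S3 to S4. The fall conditions under heat were met by 105 to 112 members.

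Replicate numbers did not pair the heat libraries: deviations of same-numbered libraries correlated by -0.21 to 0.12 in embryo, with 1 of 18 pairs above 0.1, and by -0.02 to 0.03 in endosperm. With a replicate block 13 members were lower in embryo than endosperm at S1, 2 had the larger embryo fall from S1 to S2, and no other count moved by more than 1.5 times. At S4 the depth limits low members, 55 of which had 3 counts or fewer in every heat embryo library.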
